A study of Citrus maxima and Citrus sinensis with 12 samples.

Results

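Of 172 microRNA entries counted in citrus root tips, 7 carry miR319 names, and these 7 loci are described here. They were taken by family number from the homology names that the authors gave to their predicted loci. Small RNA was sequenced from root tips of seedlings of pummelo, C. grandis (Citrus maxima in the records), and sweet orange, C. sinensis, that were 11 weeks old when sand culture began. The nutrient solution held H3BO3, the boric acid that supplies boron, at 400 µM (toxic) or 10 µM (control) for 15 weeks. The 12 libraries formed 4 groups of 3, namely C. grandis at 400 µM, C. grandis at 10 µM, C. sinensis at 400 µM and C. sinensis at 10 µM. Per the labels each library came from RNA mixed from 5 replicates, and whether the 3 libraries of a group came from separate plants is not stated, so p-values measure only the spread between these libraries. The table holds no genes that mark root tissue, and the tissue could not be checked against markers.

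miR319 is a family of plant microRNAs known from Arabidopsis and tomato, where it guides the cutting of mRNAs of TCP transcription factors, which limit cell proliferation in growing organs. It is closely related in sequence to miR159, which acts on MYB transcription factors. A plant microRNA is cut from a hairpin: for miR319 the active strand is known to lie on the 3p arm, the arm near the hairpin's 3′ end, while the 5p arm can give a second small RNA. The title of the study links miR319 to lateral root growth under boron toxicity.

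The 7 mature sequences are shown because the counts, the grouping of loci and the likeness to miR159 all rest on them. Letters run 5′ to 3′, and capitals mark the seed, bases 2 to 8.
scaffold_4_18127 (gma-miR319g): uGGACUGAagggagcuccuuc
scaffold_5_23391 (ath-miR319a): uUGGACUGaagggagcuccu
scaffold_3_9221 (ath-miR319a): uUGGACUGaagggagcuccc
scaffold_2_8704 (ath-miR319a): uUGGACUGaagggagcuccc
scaffold_1_2402 (ppt-miR319a): uUUGGACUgaagggagcucc
scaffold_3_9747 (cpa-miR319): aUUGGACUgaagggagcucc
scaffold_3_17787 (zma-miR319a-5p): gAGCUCUCugaacuccaaguc
The first 6 loci, called 3p here, share the 18 nt uggacugaagggagcucc, which no other entry of the table holds. They differ in where the small RNA begins and ends around these bases. The stretch starts at base 3 of scaffold_1_2402 and scaffold_3_9747, whose seed is UUGGACU. It starts at base 2 of scaffold_5_23391, scaffold_3_9221 and scaffold_2_8704, whose seed is UGGACUG, and at base 1 of scaffold_4_18127, whose seed is GGACUGA. Of these 6 loci, scaffold_3_9221 and scaffold_2_8704 have the same mature sequence, so their reads cannot be assigned to a locus by the mature sequence.

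The predicted hairpins lie in windows of 250 nt on numbered scaffolds (build not given in the sources used here; surrounding genes not analysed here). The authors' windows are 2444800 to 2445049 of scaffold 4 (plus strand) for scaffold_4_18127 and 14995122 to 14995371 of scaffold 5 (plus strand) for scaffold_5_23391. Those on scaffold 3 are 1238909 to 1239158 (plus strand) for scaffold_3_9221, 9860350 to 9860599 (plus strand) for scaffold_3_9747 and 48492201 to 48492450 (minus strand) for scaffold_3_17787. The others are 28033485 to 28033734 of scaffold 2 (minus strand) for scaffold_2_8704 and 4702927 to 4703176 of scaffold 1 (minus strand) for scaffold_1_2402. The deposited folding energies of the 7 hairpins were −98.3 to −62.5, against a median of −72.25 over 170 entries. Their deposited hairpin scores were 3.6 (scaffold_1_2402), 6.9 (scaffold_4_18127), 7 (scaffold_2_8704) and 9682.8 to 18482.1 at the others. The median score over 170 entries was 624.3. Within 50 kb, only scaffold_3_17787 had another entry beside it, an ath-miR159a locus (scaffold_3_17782) 7834 nt away on the same strand.

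The library totals, which are sums over the 172 entries and not all sequenced reads, were 479090 to 1062488 counts. Entries that share a sequence were each counted in them. Of these totals the 7 loci held 2.00 to 2.18% in C. grandis at 400 µM and 1.46 to 2.17% at 10 µM. In C. sinensis they held 2.47 to 2.64% at 400 µM and 1.89 to 2.33% at 10 µM. Levels are given as CPM, counts divided by the library total after edgeR's trimmed-mean scaling, so that libraries of unequal depth can be compared. All 7 loci passed the filter on low counts, with 170 entries tested. Their group means ranked 22 to 72 of the 170 entries.

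The most abundant locus was scaffold_4_18127, the form that begins at base 1 of the shared stretch. It had 6102, 6392 and 4312 CPM in C. grandis at 400 µM, against 3992, 3148 and 6017 CPM in C. grandis at 10 µM. In C. sinensis it had 8783, 7911 and 8493 CPM at 400 µM, against 7780, 7183 and 6495 CPM at 10 µM. The boron groups overlapped in C. grandis, whereas all 3 libraries at 400 µM lay above those at 10 µM in C. sinensis, and every C. sinensis library lay above every C. grandis library.

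The locus scaffold_5_23391, with the seed UGGACUG, came second in mean level in 3 of the 4 groups. It had 3934, 3734 and 2711 CPM in C. grandis at 400 µM, against 2473, 1705 and 3913 CPM at 10 µM. The C. sinensis libraries had 5108, 5008 and 4976 CPM at 400 µM, against 4870, 4207 and 3150 CPM at 10 µM. The 400 µM group was above the 10 µM group without overlap in C. sinensis, while in C. grandis replicate 3 at 10 µM reached the 400 µM libraries.

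The pair of loci with 1 mature sequence stood among the 3 lowest of the family by mean over the 12 libraries. The locus scaffold_3_9221 had 1567, 1583 and 1295 CPM in C. grandis at 400 µM, against 880, 749 and 2115 CPM at 10 µM. It had 2666, 2762 and 2992 CPM in C. sinensis at 400 µM, against 2788, 2306 and 2040 CPM at 10 µM. At 400 µM its lowest C. sinensis library was above its highest C. grandis library, while at 10 µM the species overlapped through replicate 3 of C. grandis. The locus scaffold_2_8704 had 1514, 1564 and 1217 CPM in C. grandis at 400 µM, against 883, 696 and 1876 CPM at 10 µM. Sweet orange libraries had 2286, 2249 and 2591 CPM of it at 400 µM, against 2242, 1986 and 1741 CPM at 10 µM. Although their mature sequences are identical, the counts of scaffold_2_8704 and scaffold_3_9221 were not. The count at scaffold_2_8704 divided by that at scaffold_3_9221 was 0.887 to 1.00 in the 6 C. grandis libraries and 0.804 to 0.866 in the 6 C. sinensis libraries, with no overlap. Over the whole table, 73 entries share 27 mature sequences, of which 13 had identical counts at all their loci and 14 did not.

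The loci with the seed UUGGACU overlapped between the 2 species at both boron levels. The locus scaffold_1_2402 had 3437, 3743 and 3483 CPM in C. grandis at 400 µM, against 2101, 1937 and 3712 CPM at 10 µM. Its C. sinensis values were 3134, 3260 and 3554 CPM at 400 µM, against 3253, 3065 and 2419 CPM at 10 µM. Its boron groups overlapped in both species. The locus scaffold_3_9747 had 3097, 2244 and 4756 CPM in C. grandis at 400 µM, against 1621, 1648 and 2753 CPM at 10 µM. Sweet orange had 2346, 2383 and 2880 CPM at 400 µM, against 2215, 2177 and 1857 CPM at 10 µM. The boron groups did not overlap in C. sinensis, while in C. grandis they did.

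The 5p locus scaffold_3_17787 had the highest coefficient of variation of the 7 in every group but C. grandis at 10 µM. It had 4850, 1097 and 4206 CPM in C. grandis at 400 µM, against 989, 2408 and 1299 CPM at 10 µM. In C. sinensis it had 695, 1433 and 2984 CPM at 400 µM, against 616, 425 and 1261 CPM at 10 µM. Within each group its highest library was 2.43 to 4.42 times its lowest, and the boron groups overlapped in both species.

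**Figure D1:**
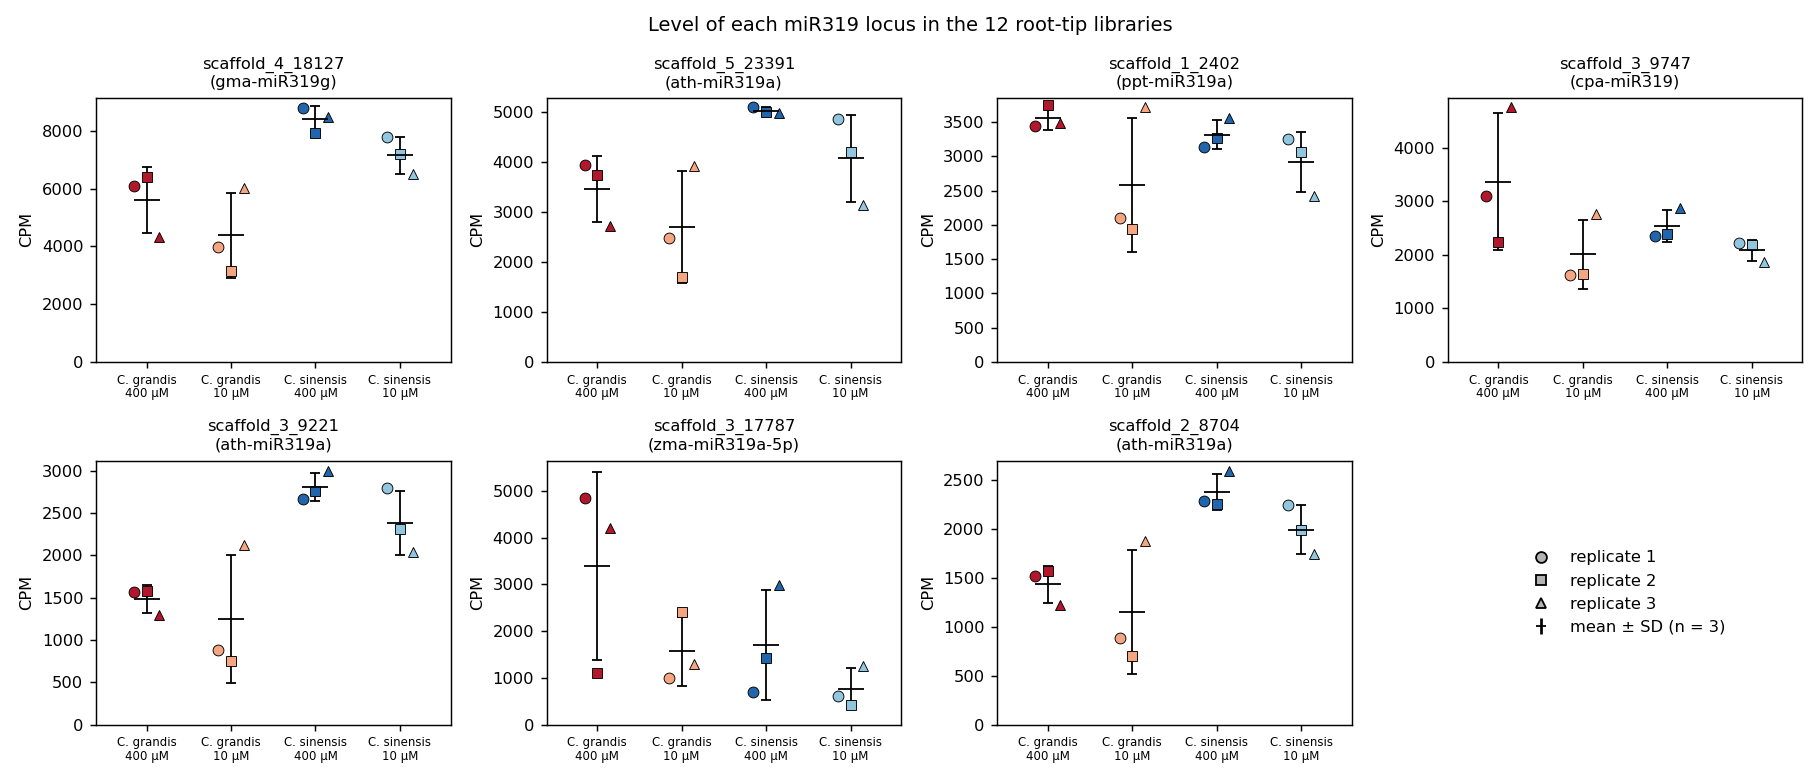
Each panel plots the level of 1 miR319 locus in CPM, from 0, for the 3 libraries of each group, with the group mean and SD as bars. At all 6 3p loci replicate 3 (triangle) is the highest C. grandis library at 10 µM, and the 5p locus scaffold_3_17787 spreads up to 4.42 times between libraries of a group.

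Most 3p loci tended to be high and low in the same libraries, scaffold_3_9747 less so. In C. grandis at 10 µM, replicate 3 was the highest of its group at 6 of 6 3p loci, by 1.68 to 2.60 times the mean of the other 2 libraries; it was the highest at 35.9% of the 170 entries tested. Across the 12 libraries, which share their scaling and the species and boron groups, Pearson's r of log2 CPM was 0.16 to 0.99 over the 15 pairs of 3p loci, with a median of 0.73. The lowest values were those of scaffold_3_9747 with the 3p loci of other seeds, 0.16 to 0.29, while with scaffold_1_2402 it had 0.73. These values are a description, since reads of near-identical sequences are not independent counts. The order of levels was not sharp. The means of scaffold_5_23391, scaffold_1_2402 and scaffold_3_9747 were 3460 ± 656, 3554 ± 165 and 3366 ± 1277 CPM in C. grandis at 400 µM (SD, n = 3 each), and lie within their spread. In C. sinensis at 400 µM scaffold_4_18127, with 8395 ± 444 CPM, and scaffold_5_23391, with 5030 ± 68.6 CPM, stood clear of the others, of which scaffold_1_2402 came next with 3316 ± 216 CPM.

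The first comparison asked what 400 µM H3BO3 did to the miR319 loci in C. grandis. None of the 7 loci passed edgeR's quasi-likelihood test, in which a difference was called at a Benjamini-Hochberg adjusted p under 0.05 over the 170 entries. In that comparison 1.18% of all entries were called, both of them lower at 400 µM. DESeq2 called 0 miR319 loci, against 2.94% of all entries. Shares of all entries at an unadjusted p under 0.05 are not given here, for this or later comparisons. At that threshold there was 1 miR319 locus. That locus was scaffold_3_9747, with a log2 difference of 0.75 ± 0.28 (SE, adjusted p = 0.156 by edgeR, 95% interval 0.15 to 1.34 without adjustment). The 5p locus scaffold_3_17787 had the greatest log2 difference, 1.11 ± 0.61, with an adjusted p of 0.339 by edgeR and an interval of −0.21 to 2.43. The other 5 loci had log2 differences of 0.25 to 0.46. All 7 values were above 0, as were 55.9% of all entries, and the median was 0.36 over the 7 loci and 0.07 over all entries. The CPM of the 2 boron levels overlapped at all 7 loci in C. grandis, whereas 13.5% of all entries had groups without overlap.

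In the authors' deposited table of boron-responsive miRNAs the same 2 loci are the miR319 entries. For C. grandis the authors' deposited table gives scaffold_3_9747 a log2 fold change of 0.72 with a false discovery rate of 0.745. It gives the 5p locus 1.12 with a false discovery rate of 0.804 in C. grandis, and 1.15 with a false discovery rate of 0.805 in C. sinensis, again in the authors' deposited table. The authors' deposited table lists 37 entries for C. grandis, of which 0 have a false discovery rate under 0.05, and 11 for C. sinensis, of which 2 do, neither a miR319 locus.

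In C. sinensis edgeR called 0 miR319 loci between the boron levels and 0% of all entries. At an unadjusted p under 0.05 there were 0 miR319 loci, and DESeq2 also called 0 of them and 0% of all entries. The log2 differences of the 3p loci were 0.19 to 0.30, and that of the 5p locus was 1.15 ± 0.61 (SE, adjusted p = 0.887 by edgeR). All 7 were above 0, as were 50% of all entries, and the medians were 0.26 for the 7 loci and −0.00 for all entries. At 4 of the 7 loci (scaffold_4_18127, scaffold_5_23391, scaffold_3_9747 and scaffold_2_8704) the 400 µM libraries lay above the 10 µM libraries without overlap, against 3.53% of all entries. These 4 loci share the 18 nt core and are not independent measurements.

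**Figure D2:**
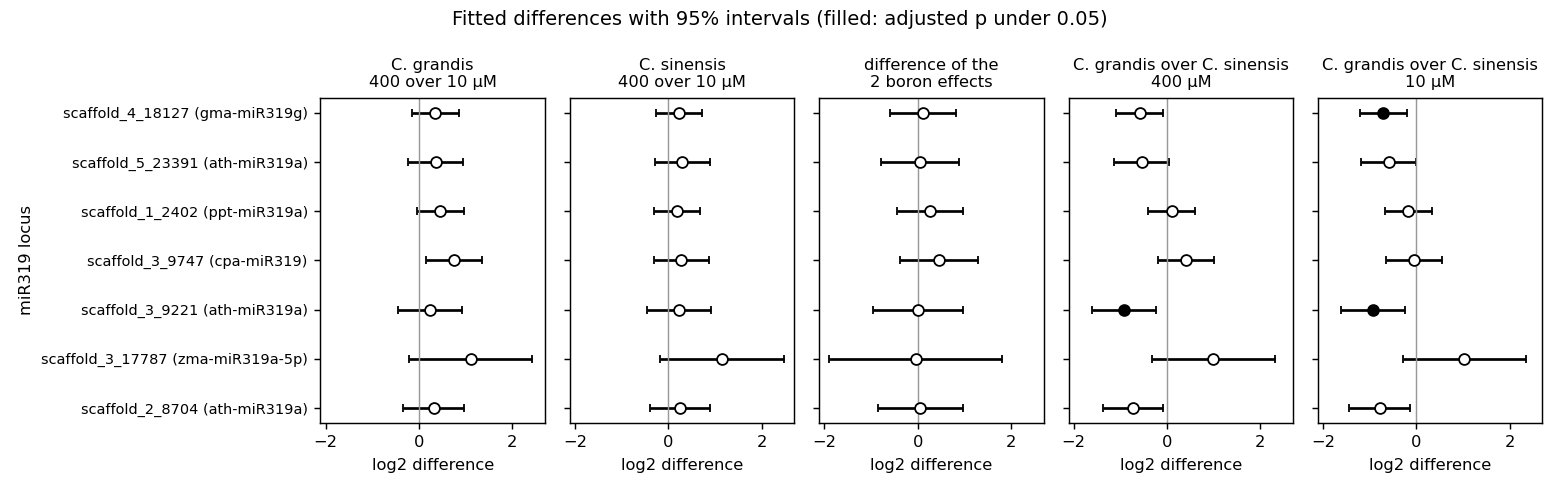
Points are fitted log2 differences of each miR319 locus with 95% intervals from edgeR, filled where the adjusted p was under 0.05, for the boron effect in each species (400 over 10 µM), that of C. grandis less that of C. sinensis, and C. grandis over C. sinensis at 400 and at 10 µM. The boron effects in each species all lie above 0, and among the species values those of scaffold_3_9221, scaffold_2_8704, scaffold_4_18127 and scaffold_5_23391 lie below 0 at both levels.

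Averaged over both species, the boron effect was 0.51 ± 0.19 on the log2 scale for scaffold_3_9747 and 1.13 ± 0.43 for the 5p locus scaffold_3_17787 (SE, adjusted p = 0.193 for each by edgeR). These were the 2 miR319 loci with an unadjusted p under 0.05, and edgeR and DESeq2 each called 0. The other 5 loci had averages of 0.24 to 0.33. Among all entries edgeR called 0.588% and DESeq2 3.53%, and the medians were 0.32 over the 7 loci and 0.04 over all entries.

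An interaction contrast then compared the boron effect of C. grandis with that of C. sinensis. By edgeR 0 miR319 loci were called, as were 0% of all entries, by DESeq2 0 loci and 1.18% of all entries, and at an unadjusted p under 0.05 there were 0 loci. The differences, C. grandis minus C. sinensis, were −0.04 to 0.46 on the log2 scale. The highest was that of scaffold_3_9747, 0.46 ± 0.39 (SE, adjusted p = 0.970 by edgeR), with an interval of −0.38 to 1.30. For the 5p locus the interval was −1.89 to 1.81. Intervals of this width leave sizeable differences in either direction undetectable with 3 libraries a group. The signs of 4 of the 6 positive values also turned with another scaling or filter.

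Between species, the 3p loci with the seeds UGGACUG and GGACUGA had negative log2 differences (lower in C. grandis) at both boron levels, of which part passed the test. At 400 µM, scaffold_3_9221 was lower in C. grandis by edgeR, with 1481 ± 162 CPM in C. grandis and 2807 ± 167 CPM in C. sinensis (SD, n = 3 each) and a log2 difference of −0.92 ± 0.32 (SE, adjusted p = 0.0454). Its partner of identical sequence, scaffold_2_8704, had −0.73 ± 0.30 (adjusted p = 0.0827 by edgeR), scaffold_4_18127 had −0.58 ± 0.23 (adjusted p = 0.0747 by edgeR) and scaffold_5_23391 had −0.54 ± 0.27 (adjusted p = 0.138 by edgeR). The log2 differences of the UUGGACU forms were 0.10 ± 0.23 for scaffold_1_2402 and 0.41 ± 0.27 for scaffold_3_9747, neither past the threshold, and the first turned to −0.075 with DESeq2's size factors. The 5p locus had 0.99 ± 0.61 (adjusted p = 0.214 by edgeR). Of all entries 28.8% were called at 400 µM, 35 higher and 14 lower in C. grandis, and 8.24% were called lower, against 1 of the 7 miR319 loci. The split of all calls moved with the scaling, to 21 higher and 26 lower with DESeq2's size factors. At 4 of 7 loci the C. grandis libraries lay below those of C. sinensis without overlap, against 19.4% of all entries.

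At 10 µM edgeR called 2 miR319 loci lower in C. grandis. They were scaffold_4_18127, with 4386 ± 1474 CPM in C. grandis and 7153 ± 643 CPM in C. sinensis and a log2 difference of −0.71 ± 0.23 (adjusted p = 0.0401), and scaffold_3_9221, with −0.93 ± 0.32 (adjusted p = 0.0454). With the replicate number as a block the adjusted p by edgeR was 0.0510 for scaffold_4_18127, which lost its call, and 0.0414 for scaffold_3_9221. The locus scaffold_2_8704 had −0.79 ± 0.30 (adjusted p = 0.0663 by edgeR) and scaffold_5_23391 −0.60 ± 0.27 (adjusted p = 0.123 by edgeR). The UUGGACU forms had −0.17 ± 0.23 (scaffold_1_2402) and −0.05 ± 0.27 (scaffold_3_9747, and 0.082 with total counts), and the 5p locus had 1.03 ± 0.61 (adjusted p = 0.221 by edgeR). Among all entries 28.2% were called, 28 higher and 20 lower, and 11.8% were called lower. At 10 µM 1 of 7 loci, scaffold_4_18127, had C. grandis libraries below those of C. sinensis without overlap, against 20% of all entries. The split of all calls was 23 higher and 29 lower with DESeq2's size factors, and 34 higher and 13 lower with total counts. The median log2 difference of the 7 loci was −0.54 at 400 µM and −0.60 at 10 µM, against 0.18 and 0.10 over all entries.

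These calls depended on single libraries. Leaving out 1 library at a time gave 0 to 4 called loci at either boron level. At 400 µM the count was 0 without replicate 1 or 3 of C. grandis at 400 µM, replicate 2 of C. sinensis at 400 µM, or replicate 2 or 3 of C. sinensis at 10 µM. It was 4 without replicate 2 of C. grandis at 400 µM or replicate 2 or 3 of C. grandis at 10 µM, and 3 without replicate 3 of C. sinensis at 400 µM or replicate 1 of C. sinensis at 10 µM. At 10 µM the count was 0 without replicate 1 or 2 of C. grandis at 10 µM or any replicate of C. sinensis at 10 µM, and 4 without replicate 3 of C. grandis at 10 µM. It was 1 without replicate 1 of C. grandis at 400 µM, and 3 without replicate 2 of C. grandis or any replicate of C. sinensis at 400 µM. With DESeq2 the count was 4 at both levels, against 28.8% of all entries called at 400 µM and 34.1% at 10 µM. Calls among all entries also moved when 1 library was left out. At 400 µM they were fewest, 19, without replicate 2 of C. sinensis at 400 µM. They were most, 62, of which 48 were lower in C. grandis, without replicate 2 of C. grandis at 400 µM. At 10 µM they spanned 23 (without replicate 1 of C. sinensis at 10 µM) to 49 (without replicate 1 of C. grandis at 400 µM).

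The makeup of the 3p reads differed between the species in a way that does not depend on scaling. Grouped by seed, with the shared sequence counted once, the UUGGACU forms scaffold_1_2402 and scaffold_3_9747 held 36.1, 33.9 and 49.9% of 3p miR319 counts in C. grandis at 400 µM, against 25.1, 26.8 and 28.4% in C. sinensis at 400 µM. At 10 µM they held 33.6, 39.1 and 35.2% in C. grandis, against 26.5, 27.9 and 27.0% in C. sinensis. Every C. grandis library was above every C. sinensis library. The grouping was chosen after the values were seen and is given without a test.

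The form that starts furthest downstream, scaffold_4_18127 with the seed GGACUGA, held 32.0 ± 5.23% of 3p counts in C. grandis and 38.4 ± 1.57% in C. sinensis at 400 µM. At 10 µM it held 34.4 ± 1.68% in C. grandis and 39.0 ± 1.81% in C. sinensis (SD, n = 3 each). The species did not overlap at either level. The UGGACUG forms held 24.0 to 30.2% in C. grandis and 34.2 to 35.7% in C. sinensis at 400 µM. At 10 µM they held 26.5 to 32.1% in C. grandis and 31.9 to 35.8% in C. sinensis, and the species overlapped. Between boron levels the UUGGACU share overlapped in both species, at 39.9 ± 8.68% in C. grandis at 400 µM and 36.0 ± 2.84% at 10 µM, and at 26.7 ± 1.63% in C. sinensis at 400 µM and 27.2 ± 0.716% at 10 µM.

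**Figure D3:**
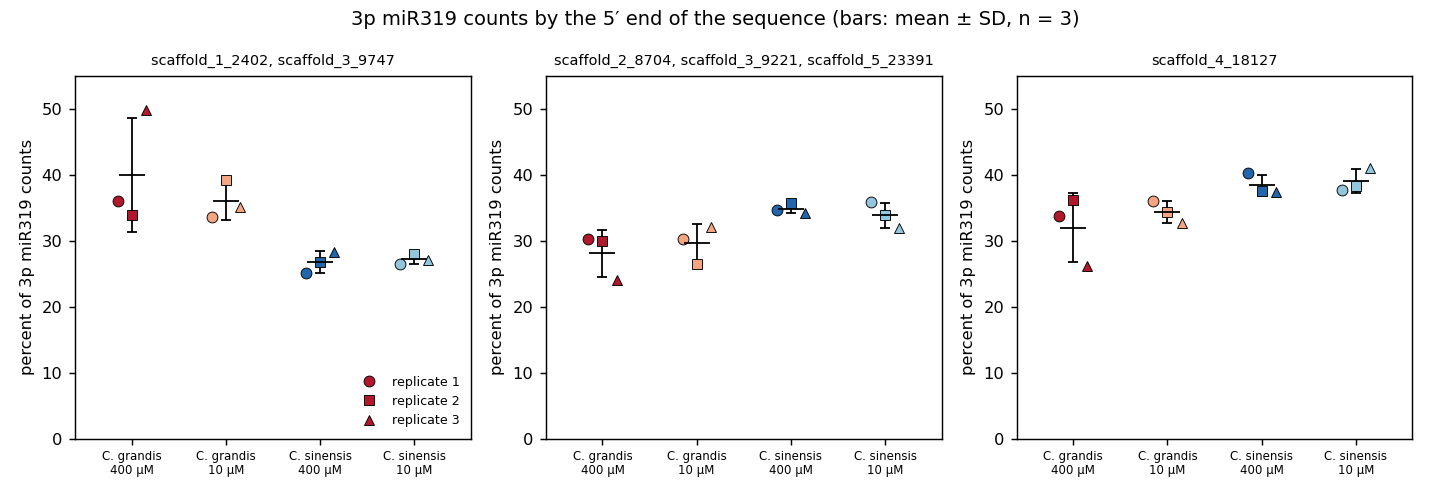
Each panel plots the percent of all 3p miR319 counts held by the loci of 1 seed (UUGGACU left, UGGACUG middle, GGACUGA right) in each library, from 0, with group means and SD. In the left panel the C. grandis libraries span 33.6 to 49.9% and the C. sinensis libraries 25.1 to 28.4%.

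Summed over the 6 distinct sequences, with the shared sequence taken as the mean of its 2 entries, the family had 17856, 19283 and 19433 CPM in C. grandis at 400 µM, against 12417, 12003 and 19557 CPM at 10 µM. In C. sinensis the sum was 24217, 22362 and 24702 CPM at 400 µM, against 23379, 20585 and 18126 CPM at 10 µM. Replicate 3 of C. grandis at 10 µM stood level with the 400 µM libraries, and without it the other 2 lay below all of them. The boron effect on the sum was 0.36 ± 0.19 in C. grandis (SE, adjusted p = 0.349 by edgeR), 0.20 ± 0.19 in C. sinensis (adjusted p = 0.954) and 0.28 ± 0.13 averaged over both (adjusted p = 0.329). Without replicate 3 of C. grandis at 10 µM it was 0.73 in C. grandis (adjusted p = 0.0334 by edgeR) and 0.51 averaged (adjusted p = 0.0247 by edgeR), both past the threshold. Over all settings tried, the adjusted p in C. grandis spanned 0.0334 to 0.662 and the averaged one 0.0247 to 0.557. The difference of the 2 effects was 0.16 ± 0.27 (adjusted p = 1.00 by edgeR), and −0.03 without replicate 1 of C. grandis at 10 µM.

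At 400 µM the sum averaged 18858 ± 870 CPM in C. grandis and 23761 ± 1235 CPM in C. sinensis (SD, n = 3 each), a log2 difference of −0.33 ± 0.19 (adjusted p = 0.198 by edgeR). At 10 µM it was 14659 ± 4247 CPM in C. grandis and 20697 ± 2628 CPM in C. sinensis, with −0.50 ± 0.19 (adjusted p = 0.0689 by edgeR). DESeq2 gave −0.56 at 10 µM (adjusted p = 0.0393), and leaving out replicate 3 of C. grandis at 10 µM gave −0.73 (adjusted p = 0.00478 by edgeR), both past the threshold.

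**Figure D4:**
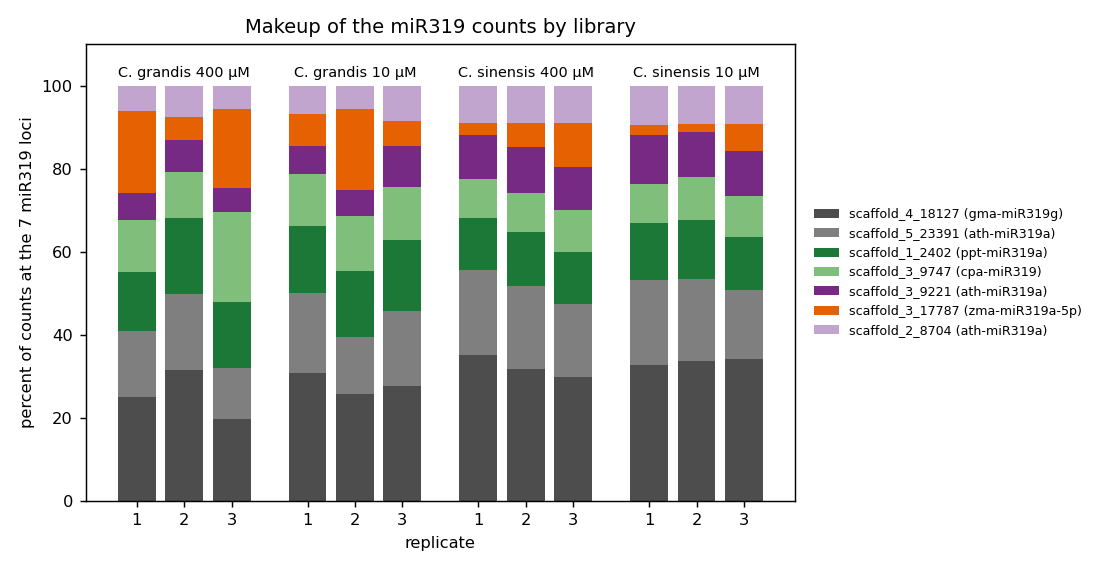
Bars from 0 stack the 7 loci as percent of their summed counts in each of the 12 libraries, with each locus counted as deposited. The 5p locus (orange) holds 1.99 to 19.8% of them, depending on the library.

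The 5p entry took up very unequal parts of the family. It held 21.1, 5.84 and 20.3% of family counts in C. grandis at 400 µM, against 8.21, 20.8 and 6.60% at 10 µM. In C. sinensis it held 3.08, 6.37 and 11.6% at 400 µM, against 2.90, 2.21 and 7.39% at 10 µM. Exact 95% intervals reached at most 0.749 percentage points from a share and cover counting error only, so the spread between libraries exceeded counting error. The boron difference in the share was 3.88 points in C. grandis (exact permutation test, two-sided, p = 0.9, adjusted over 4 comparisons 0.9) and 2.86 points in C. sinensis (exact p = 0.5, adjusted 0.667). A check by equal replicate numbers in C. sinensis was added after the data were seen. There the 5p share and CPM were both higher at 400 µM in 3 of 3 pairs, and the share of all entries with this pattern is not given here. For the share the exact paired permutation test, two-sided, gave p = 0.25, the smallest that 3 pairs can give. The labels do not state that these numbers pair libraries. The paired test was not run in C. grandis. There the share at replicate 2 was lower at 400 µM (5.84%) than at 10 µM (20.8%), while at replicates 1 and 3 it was higher. The species difference was 8.73 points at 400 µM (exact p = 0.3, adjusted 0.6) and 7.71 points at 10 µM (exact p = 0.2, adjusted 0.6). With 3 libraries against 3 the smallest p this test can give is 0.1.

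The 5p entry stood apart from the 3p loci in its hairpin. The deposited star sequence, the strand opposite the mature one, is shown with the mature sequences of gma-miR159c and of the nearest 3p miR319 locus, capitals marking the base at position 7 from the 5′ end.
scaffold_3_17787 star: auuggaGugaagggagcucc
scaffold_5_28250 (gma-miR159c) mature: auuggaGugaagggagcucc
scaffold_3_9747 (cpa-miR319) mature: auuggaCugaagggagcucc
The star of the 5p entry is identical over its whole length to the mature sequence of gma-miR159c, 1 of the 171 other entries, and differs from the mature sequence of scaffold_3_9747 by C7G. The gma-miR159c window lies at 19744513 to 19744762 of scaffold 5 (minus strand). The entry with a miR319-5p name thus sits in a hairpin whose other arm has the bases of a miR159 entry and 1 difference from a miR319 entry.

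The counts of gma-miR159c followed those of the 5p entry from library to library. In C. grandis at 400 µM gma-miR159c had 626, 241 and 570 CPM, against 173, 304 and 271 CPM at 10 µM, so that replicate 2 was the lowest at 400 µM and the highest at 10 µM, as at the 5p entry. In C. sinensis gma-miR159c had 265, 398 and 644 CPM at 400 µM, against 232, 205 and 389 CPM at 10 µM, and replicate 3 was the highest in both groups, as at the 5p entry. Its boron effect averaged over species was 0.80 ± 0.29 on the log2 scale (SE, adjusted p = 0.188 by edgeR), beside 1.13 ± 0.43 at the 5p entry. Across the 12 libraries Pearson's r of log2 CPM between the 5p entry and gma-miR159c was 0.85 (Spearman 0.89), ranking 5 of 118 other sequences behind osa-miR156k (0.92), ath-miR162a-3p (0.89), csi-miR156 (0.86) and csi-miR172a-5p (0.85). For deviations from the group means r was 0.98 with gma-miR159c, 0.91 with ath-miR162a-3p and 0.88 with osa-miR156k, ranks 1 to 3, so entries outside miR159 also moved with the 5p entry. Among the 6 3p miR319 loci, the 5p entry had r of 0.55 with scaffold_3_9747, 0.10 with scaffold_1_2402 and −0.37 to −0.31 with the others. These correlations are descriptions over libraries that share scaling and groups. The 5p count was 4.55 to 7.92 times that of gma-miR159c in C. grandis and 2.07 to 4.63 times in C. sinensis.

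**Figure D5:**
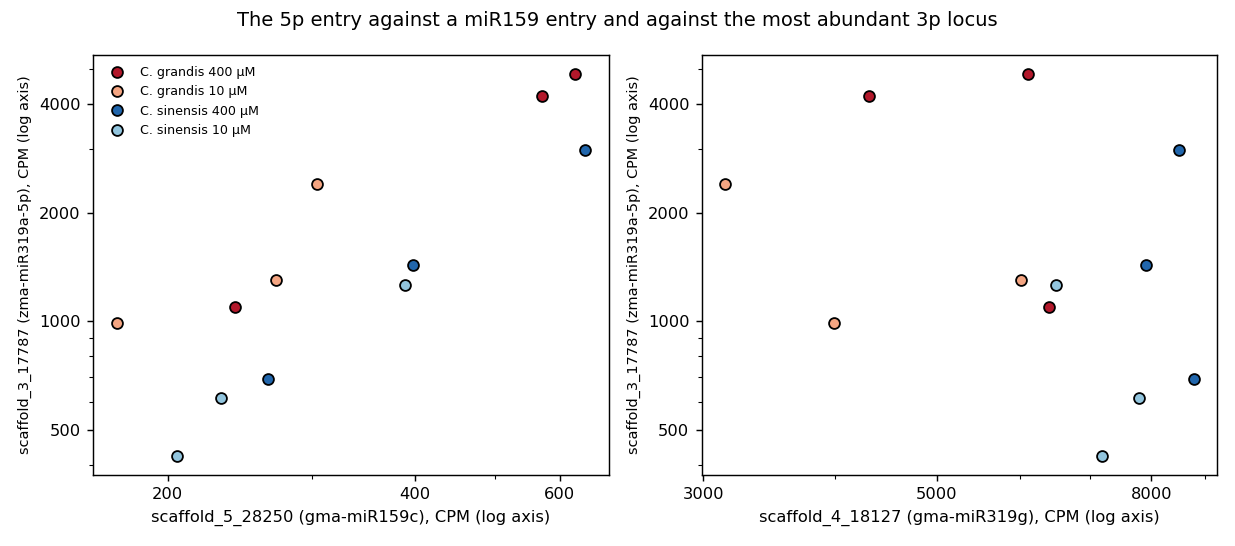
Points are the 12 libraries, coloured by group, with CPM of the 5p entry on the vertical log axis and CPM of gma-miR159c (left) or of scaffold_4_18127 (right) on the horizontal log axis. The points climb together in the left panel (r 0.85 of log2 CPM) and scatter in the right one.

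The spread of the 5p entry was wide beside that of the whole table. Its coefficient of variation was 59.3% in C. grandis at 400 µM, 47.6% in C. grandis at 10 µM, 68.6% in C. sinensis at 400 µM and 57.1% in C. sinensis at 10 µM, against medians over all entries of 26.1, 22.9, 17.0 and 16.0% in these groups. Of the entries with a group mean of at least 1000 CPM, those at or above the 5p entry numbered 3 of 67, 5 of 66, 1 of 63 and 0 of 60 in the same order of groups. In the last group the 5p entry itself averaged 767 CPM, so it was set there beside more abundant entries.

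By Pearson's r of log2 CPM over the 12 libraries, the entries outside the family most like scaffold_4_18127, the most abundant miR319 locus, were scaffold_3_13307 (0.83), scaffold_3_10325 (0.78), scaffold_8_42593 (0.75), ghr-miR7496a (0.73) and osa-miR5077 (0.73). The least like were scaffold_3_13713 (−0.88) and scaffold_6_31533 (−0.88). Of these, 3 were nearly confined to C. sinensis libraries: at 400 µM scaffold_3_10325 averaged 0.519 CPM in C. grandis and 112 CPM in C. sinensis, scaffold_8_42593 averaged 0.861 CPM in C. grandis and 209 CPM in C. sinensis, and ghr-miR7496a had 0 CPM in C. grandis and 277 CPM in C. sinensis. That split between species enters their likeness. For scaffold_8_42593 and osa-miR5077 the sign turned when group means were taken out, to −0.65 and −0.21. scaffold_3_13307, which has no homology name, averaged 140 ± 23.3 CPM in C. grandis at 400 µM, 81.0 ± 9.93 CPM in C. grandis at 10 µM, 190 ± 11.5 CPM in C. sinensis at 400 µM and 158 ± 31.5 CPM in C. sinensis at 10 µM (SD, n = 3 each).

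Families tied to miR319 by sequence or by the pathway, or known from root growth, were set beside it. These were miR159, then miR164 and miR396, which TCP factors raise in Arabidopsis, and miR160, miR167, miR171 and miR390; miR393 had 0 loci. Of their 28 loci 27 were tested, with 19 distinct sequences. In the boron comparisons edgeR and DESeq2 each called 0 of the 27, and at an unadjusted p under 0.05 there were 9 in C. grandis and 0 in C. sinensis. The 9 were 4 miR159, 4 miR167 and 1 miR396 loci, and the 4 loci of miR159 and of miR167 hold 3 distinct sequences each. The share of all entries at this unadjusted threshold is not given here, so the 9 are not read as a response. Between species 7 were higher and 2 lower in C. grandis at 400 µM, and 3 higher and 2 lower at 10 µM. The called loci were 33.3% of the 27 at 400 µM and 18.5% at 10 µM, against 28.8% and 28.2% of all entries. DESeq2 called 5 at each level. The 2 lower ones were the miR390 loci of 1 sequence (scaffold_6_31928 and scaffold_8_40978), of a family that in Arabidopsis starts the making of small RNAs against auxin response factors. Their log2 differences were −1.11 and −1.10 at 400 µM (adjusted p = 0.00681 and 0.00706 by edgeR).

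Among the miR159 loci, scaffold_3_17782, the neighbour of the 5p entry, was higher in C. grandis at 400 µM, with 2561 ± 217 CPM in C. grandis and 1521 ± 76.7 CPM in C. sinensis (log2 difference 0.75, adjusted p = 0.0240 by edgeR). This is the opposite direction to scaffold_3_9221. The 4 miR167 loci, known to target auxin response factors, had log2 differences of 0.65 to 0.77 at 400 µM (adjusted p = 0.0149 to 0.0283 by edgeR). They hold 3 distinct sequences, and ccl-miR167a and ccl-miR167b had identical values. miR171, known to target GRAS factors of the scarecrow-like group, was higher in C. grandis at 400 µM at scaffold_2_8272 (1.17, adjusted p = 0.0240 by edgeR) and scaffold_2_9114 (1.36, adjusted p = 0.0462), and at 10 µM at scaffold_2_8272 (1.30, adjusted p = 0.0148). The 5 tested miR171 loci hold 2 distinct sequences. Their log2 differences at 400 µM were 1.17 to 1.36, and the loci not named here were not called. At 10 µM ptc-miR396g-5p was higher in C. grandis by 1.04 (adjusted p = 0.0144 by edgeR), and ath-miR164b-3p by 3.90 (adjusted p = 0.0131), the miR164b-3p entry with 374 ± 475 CPM in C. grandis, an SD above the mean, and 25.2 ± 12.6 CPM in C. sinensis. The most abundant entry of these families was ath-miR159a (scaffold_3_17340), with 97423 ± 12007 CPM in C. grandis at 400 µM and 65390 ± 14803 CPM in C. grandis at 10 µM, and it was not called between boron levels or species. Other abundant entries of these families without a call were ccl-miR396 (12404 ± 2525 CPM in C. grandis at 400 µM and 12882 ± 3172 CPM at 10 µM), ath-miR396a-5p, ath-miR164a and the ath-miR160a-5p loci scaffold_6_31468 and scaffold_2_8873, whose boron effects in C. grandis were −0.08 to 0.18 on the log2 scale.

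Predicted targets were deposited for 2 of the 7 loci, the same 2 that the authors list among boron-responsive miRNAs. Whether targets were sought for the other loci is not known here. The locus scaffold_3_9747 has 4 predicted target genes in the authors' deposited table: Ciclev10014986m, a TCP family transcription factor, Ciclev10000756m with a Myb-like DNA-binding domain, Ciclev10002179m with a Dof zinc finger and Ciclev10000733m, calmodulin binding protein-like. Ciclev10014986m is the 1 gene annotated as TCP among 29 predicted target genes. Ciclev10000756m is also listed for gma-miR159c, whose sequence differs from that of scaffold_3_9747 by 1 base. The 5p locus has 1 predicted target, Ciclev10004461m of the ABC1 family, listed for both species. Target mRNAs were not measured in these libraries.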

How the data were processed

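Per the labels, RNA was extracted with TRIzol, turned into libraries with Illumina's TruSeq kit for small RNA, and read single-end on a HiSeq 2500. Aligner, miRNA caller and genome build are not given in the sources used here; DESeq is the tool named in the submitters' processing notes. The deposited expression table holds the authors' counts, whole numbers per locus. The deposited list of loci gives a hairpin score, coordinates and sequences. The authors' deposited table of responsive miRNAs gives log2 fold changes with p-values and false discovery rates.

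The counts were tested with edgeR 4.0.16 in R 4.3.3 (trimmed-mean scaling, filterByExpr with a minimum of 10 counts, 170 of 172 entries kept, 1 mean per group over 12 libraries, quasi-likelihood F test, two-sided, Benjamini-Hochberg over 170 entries, threshold 0.05). Shares used exact permutation tests (scipy 1.17.1). The biological coefficient of variation was 28.1%. CPM on the log scale had a prior count of 2. The fits were also run on simulated data, whose outcome is not given here and was not used to judge the miR319 values. The hairpin score, the target table and the authors' fold changes were used only to describe loci. Alternatives were other scalings, DESeq2 1.42.0, other filters, fewer libraries, merged identical sequences, a robust fit and a replicate block.

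Deviations from group means were compared between libraries of equal replicate number in the 2 boron groups. In C. sinensis r was 0.40, 0.24 and 0.22, and in C. grandis it was −0.12, −0.23 and 0.20. Libraries of unlike number were not compared, so these values cannot tell whether the numbers pair libraries, and the labels do not state it. The members and lists were chosen with earlier results of these data known. All 7 loci were named; of related families all called entries and up to 2 others each; and the 5 most and 2 least like entries.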

Additional observations from a re-analysis of the deposited data

How the results depend on the processing

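The count of called miR319 loci stayed at 0 in all boron comparisons and in their difference under every setting tried. For the species difference at 400 µM, where 1 locus was called, the count was 3 with DESeq2's size factors, total counts or merged sequences. With merged sequences the 3 include both scaffold_2_8704 and scaffold_3_9221, which were 1 row in that fit. The count was 4 with DESeq2, no filter, a minimum mean CPM of 10 or only the 6 libraries compared. Calls among all entries numbered 35 (only the 6 libraries) to 49 (DESeq2) in these settings. At 10 µM, where 2 were called, the miR319 count was 4 with DESeq2's size factors or DESeq2. It was 3 with no filter, a minimum mean CPM of 10 or merged sequences, where again scaffold_2_8704 and scaffold_3_9221 were 1 row but both count. It was 1 with total counts, only 6 libraries or the replicate block (which kept scaffold_3_9221). Calls among all entries numbered 39 (only 6 libraries) to 58 (DESeq2) in these settings. Leaving out 1 library gave 0 to 4 called miR319 loci at either level. Taking the 5p entry out of the family sum, an alternative chosen after seeing the data, changed no call of the sum. The species difference was then −0.48 at 400 µM (adjusted p = 0.111 by edgeR) and −0.63 at 10 µM (adjusted p = 0.0508 by edgeR). The boron effect was then 0.31 in C. grandis and 0.16 in C. sinensis. The replicate block changed no other call of the family, and the labels do not state that numbers pair libraries across species. For the summed family DESeq2 gave −0.56 at 10 µM (past the threshold); leaving out 1 library gave 0.21 to 0.73 for boron in C. grandis, 0.23 to 0.51 averaged, −0.030 to 0.43 for the difference of effects and −0.73 to −0.36 between species at 10 µM.

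Signs turned only in values not past the threshold. Scaffold_1_2402 at 400 µM between species became −0.075 (DESeq2's size factors, DESeq2), −0.081 (6 libraries) or −0.16 (no filter, mean CPM), and scaffold_3_9747 at 10 µM became 0.082 (total counts). The difference of boron effects became, for scaffold_2_8704, −0.11 (total counts), −0.056 (no filter, mean CPM) and −0.046 (merged). For scaffold_3_9221 it became −0.014 (DESeq2 and its size factors), −0.16 (total counts), −0.11 (no filter, mean CPM) and −0.046 (merged). For scaffold_4_18127 it became −0.072 (total counts) and −0.015 or −0.014 (no filter, mean CPM), and for scaffold_5_23391 −0.14 (total counts), −0.083 (no filter, mean CPM) and −0.033 (merged). Likeness within groups became −0.65 for scaffold_8_42593 and −0.21 for scaffold_8_39336. Leaving out 1 library gave a boron effect in C. grandis of −0.071 to 0.58 (scaffold_2_8704), −0.14 to 0.58 (scaffold_3_9221), −0.066 to 0.51 (scaffold_4_18127) and −0.026 to 0.51 (scaffold_5_23391). It gave a difference of boron effects of −0.016 to 0.39 (scaffold_1_2402), −0.28 to 0.37 (scaffold_2_8704), −0.62 to 0.29 (scaffold_3_17787), −0.33 to 0.39 (scaffold_3_9221), −0.25 to 0.28 (scaffold_4_18127) and −0.29 to 0.21 (scaffold_5_23391). The species difference was −0.31 to 0.12 (scaffold_1_2402, 400 µM) and −0.37 to 0.079 (scaffold_3_9747, 10 µM). Total counts moved the median of all entries by −0.24 in the C. grandis boron effect, −0.21 in the difference of effects and 0.16 between species at 10 µM, and DESeq2's size factors by −0.17 and −0.13 between species at 400 and 10 µM. The cause of these changes was not tested.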
